A study of Mus musculus with 6 samples.

Results

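The CD209 lectins of the mouse are encoded by Cd209a, Cd209b, Cd209c, Cd209d and Cd209e, and these 5 genes were read by their Entrez gene IDs from a table of 27179 genes. The members were selected on their read counts in these same 6 libraries, CpG-pretreated against untreated, so their differences between the groups are given as a description, without p-values. Of the 5, 4 had enough counts to enter the fit across 11602 genes, and Cd209e did not. Cd209f and Cd209g, the remaining genes whose symbol begins with Cd209, had no count in any library.

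The data were RNA-seq counts from 6 libraries of CD8- dendritic cells sorted from the spleens of C57BL/6 mice and lysed without culture. The 3 libraries of the first group are labelled as CpG-pretreated (samples 2, 3 and 4) and the 3 of the second as untreated (samples 2, 3 and 4), all of one strain, with no genetic change named in the labels. CpG oligonucleotides activate Toll-like receptor 9, and the series addresses dendritic cells that respond poorly after a systemic inflammatory syndrome. The CpG sequence, dose, route and time, the age of the mice, the markers of the sort and whether a library pooled animals are not given by the sources used here, so p-values measure only the spread between these samples.

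CD209 proteins are transmembrane C-type lectins that bind mannose- or fucose-bearing glycans in a calcium-dependent way and carry them into the cell. Human DC-SIGN, the product of CD209, is known from dendritic cells and macrophages, where it binds microbial glycans and the adhesion molecules ICAM2 and ICAM3. In the mouse the gene was duplicated several times. Cd209a encodes the protein first named CIRE, found on CD8- dendritic cells of the spleen. Cd209b encodes SIGNR1, the lectin by which marginal zone macrophages of the spleen capture blood-borne polysaccharides. Cd209c, Cd209d and Cd209e encode SIGNR2, SIGNR3 and SIGNR4.

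The 5 genes lie side by side on the minus strand of chromosome 8 in GRCm38, the assembly that mm10 names. Cd209a spans 3743395 to 3748984, Cd209e 3847973 to 3854286, Cd209d 3871824 to 3878548, Cd209b 3917655 to 3926841 and Cd209c 3940081 to 3954746. The region from the lower end of Cd209a to the upper end of Cd209c covers 211 kb. Members lower in CpG-pretreated cells (Cd209a, Cd209b, Cd209c) and others without such a difference (Cd209d, Cd209e) share this cluster. For this reason DNA around some of their starts is shown. The window of Cd209c, from 250 bases before to 50 after its start, is not printed. It held none of the runs marked in capitals below, although Cd209c is among the lower members. The stretches below are the 130 bases before the RefSeq start of Cd209a (chr8:3748985-3749114), Cd209b (chr8:3926842-3926971) and Cd209e (chr8:3854287-3854416) in GRCm38.p6, read 5′ to 3′ on the minus strand. Capitals mark the run TTCCGG, which holds the short ETS core CCGGAA on the opposite strand. That core was searched on both strands of windows from 250 bases before to 50 after each start, and 14.9% of 32851 such windows held it.
Cd209a: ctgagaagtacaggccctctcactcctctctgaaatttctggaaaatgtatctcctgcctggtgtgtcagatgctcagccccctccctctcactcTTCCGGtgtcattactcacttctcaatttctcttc
Cd209b: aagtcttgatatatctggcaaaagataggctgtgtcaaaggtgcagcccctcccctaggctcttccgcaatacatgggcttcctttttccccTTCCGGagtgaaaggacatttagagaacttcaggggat
Cd209e: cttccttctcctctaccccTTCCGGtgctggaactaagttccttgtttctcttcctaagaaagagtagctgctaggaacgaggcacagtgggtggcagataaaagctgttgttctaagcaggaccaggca

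The TTCCGG run began 35 bases before the start in Cd209a, 38 before it in Cd209b and 111 before it in Cd209e, and the windows of Cd209c and Cd209d held no copy of the core. For Cd209d the start in the promoter table lies inside its gene record, so its window depends on the start used, and no 130-base stretch is printed for it. The 7-letter core GAGGAAG, bound by PU.1, was in 13.6% of all windows and in none of the 7 Cd209 windows. No Cd209 window held the NF-kB motif (1.63% of all windows) or the interferon-stimulated response element (3.44%). These motifs were chosen with the sequences in view, and a match or its lack in a window says nothing of binding.

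The longest run that the windows of Cd209a and Cd209b had in common is shown next, because these are the most abundant and the most reduced member. It was 17 bases long, ATAAAAGCTGTAGTCTC, and these were the only 2 of 32851 windows that held it. Its first 11 bases, in capitals below, also occur before Cd209e and in 9 windows in all (0.0274%). The blocks are chr8:3748937-3748966 for Cd209a, chr8:3926822-3926851 for Cd209b and chr8:3854297-3854326 for Cd209e, all on the minus strand of GRCm38.p6.
Cd209a: ggtggcaaATAAAAGCTGTagtctctgtca
Cd209b: ttcaggggATAAAAGCTGTagtctccagca
Cd209e: ggtggcagATAAAAGCTGTtgttctaagca

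In Cd209a the run began at base 27 of the transcript, in Cd209b 2 bases before the start and in Cd209e 32 bases before it. A second run, TTTCTCTTCCTA, was shared by Cd209a, Cd209d and Cd209e and occurred in 9 of the 32851 windows (0.0274%). It lies in the block below at chr8:3748973-3749002 for Cd209a, chr8:3878549-3878578 for Cd209d and chr8:3854351-3854380 for Cd209e, again in capitals. Like the motifs, these runs are a description of the DNA only.
Cd209a: acttctcaaTTTCTCTTCCTAagtaagatt
Cd209d: agttcctttTTTCTCTTCCTAtcagaatgt
Cd209e: agttccttgTTTCTCTTCCTAagaaagagt

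Reads of copied genes can be credited to the wrong member, so the transcripts were compared. None of the 1433 stretches of 50 bases in the Cd209a transcript, the 1990 of Cd209b, the 870 of Cd209d or the 1753 of Cd209e occurred in a transcript of any other gene. Cd209c shared 336 of its 1501 stretches (22.4%) with genes outside the family and none with a Cd209 gene. At 100 bases the share for Cd209c was 98 of 1451 stretches (6.75%). Over aligned coding bases Cd209a and Cd209b were 69.8% identical, and the pairs among the 5 members ranged from 66.8% (Cd209a and Cd209d) to 75.1% (Cd209b and Cd209d). Neither the read length nor the handling of multi-mapping reads is given by the sources used here, so counts of Cd209c in particular may include reads of other genes.

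Total counts were 7855500 to 8228140 per library, and 1 count was worth 0.123 to 0.127 CPM (CPM, counts scaled to library size after TMM normalization). For Cd209f and Cd209g, a count of 0 allows up to 3 counts, or 0.368 to 0.380 CPM per library, counting error only. Across all genes, 113 of 11602 differed between the groups by edgeR's quasi-likelihood test at an adjusted p under 0.05, which is 0.974%, and 58 of these were lower in CpG-pretreated cells (0.500%). An unadjusted p under 0.05 by the same test was found for 1485 of the 11602 genes, the background for the unadjusted counts below. A fit that added the sample number as a block called 988 genes (8.52%), 549 higher and 439 lower. Of the 4 tested members, 1 was among the called genes (Cd209b), and with the block 2 were (Cd209a and Cd209b). All CpG-pretreated libraries lay below all untreated ones in 3 of the 4 tested members, as in 9.47% of all tested genes. Nothing is read from these member counts, since the same contrast chose the members. Cd209b and Cd209c passed the filter on low counts only through the untreated group, with at least 10 counts in 1 and 0 CpG-pretreated libraries, against 3 untreated libraries each.

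Cd209a, the dendritic cell lectin CIRE, was by far the most abundant member and was lower in every CpG-pretreated library. Its counts were 1067, 752 and 1166 in CpG-pretreated samples 2, 3 and 4, against 1706, 1456 and 1688 in untreated samples 2, 3 and 4. In CPM these were 131, 95.4 and 147 in CpG-pretreated samples and 209.6, 182 and 207 in untreated samples. The groups did not overlap, and the highest CpG-pretreated library, sample 4, remained under the lowest untreated one, sample 3. Cd209a averaged 124 ± 26.4 CPM in CpG-pretreated cells and 199.7 ± 15.4 CPM in untreated cells (SD, n = 3 each). The fitted log2 fold change was -0.68 (SE 0.16), so the CpG-pretreated level was 0.623 of the untreated one, and with the block it was -0.70 (SE 0.089). Less RNA per cell and fewer cells carrying the RNA cannot be told apart in libraries of sorted cells in bulk.

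Cd209b, the marginal zone lectin SIGNR1, had the widest gap between the groups of any member. It had 9, 4 and 11 counts in CpG-pretreated samples 2, 3 and 4, against 85, 46 and 91 counts in untreated samples 2, 3 and 4. In CPM the CpG-pretreated samples stood at 1.10, 0.507 and 1.39, and the untreated samples at 10.4, 5.75 and 11.2. Every CpG-pretreated library was far under every untreated one, and sample 3 was the lowest of each group. Cd209b averaged 0.999 ± 0.448 CPM in CpG-pretreated cells and 9.13 ± 2.95 CPM in untreated cells. The log2 fold change was -3.17 (SE 0.39), a level 0.111 of the untreated one. Summed over the groups there were 24 counts in CpG-pretreated libraries and 222 in untreated ones.

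Cd209c (SIGNR2) was scarce in both groups. It had 8, 7 and 6 counts in CpG-pretreated samples 2, 3 and 4, against 15, 18 and 17 counts in untreated samples 2, 3 and 4. No CpG-pretreated library reached the lowest untreated one. The means were 0.875 ± 0.113 CPM in CpG-pretreated cells and 2.06 ± 0.205 CPM in untreated cells. The log2 fold change was -1.22 (SE 0.30), a level 0.429 of the untreated one. With a prior count of 2 in place of edgeR's default it was -1.04.

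Cd209d (SIGNR3), which in mice recognises mycobacterial glycans, showed no separation of the groups. It had 20, 14 and 8 counts in CpG-pretreated samples 2, 3 and 4, against 10, 24 and 14 counts in untreated samples 2, 3 and 4. The highest value was that of an untreated library, sample 3, and the lowest that of a CpG-pretreated library, sample 4. The means were 1.75 ± 0.723 CPM in CpG-pretreated cells and 1.98 ± 0.915 CPM in untreated cells. The log2 fold change was -0.18 (SE 0.43), and it was positive without CpG-pretreated sample 4 (0.10) and without untreated sample 3 (0.24). The difference was smaller than the spread between replicates, whose coefficient of variation was 41.4% in CpG-pretreated and 46.1% in untreated libraries.

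Cd209e (SIGNR4) was the least abundant of the 5 genes and had under 10 counts in every library. It had 9, 7 and 4 counts in CpG-pretreated samples 2, 3 and 4, against 5, 4 and 3 counts in untreated samples 2, 3 and 4. The groups overlapped, with CpG-pretreated sample 4 inside the untreated range. Summed counts were 20 in CpG-pretreated and 12 in untreated libraries, a log2 ratio of 0.75 with a 95% interval of -0.35 to 1.92 that covers counting error only. Cd209e is the member whose mean was higher in CpG-pretreated cells, at 0.832 ± 0.304 CPM, against 0.494 ± 0.123 CPM in untreated cells, and its interval includes 0.

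**Figure D1:**
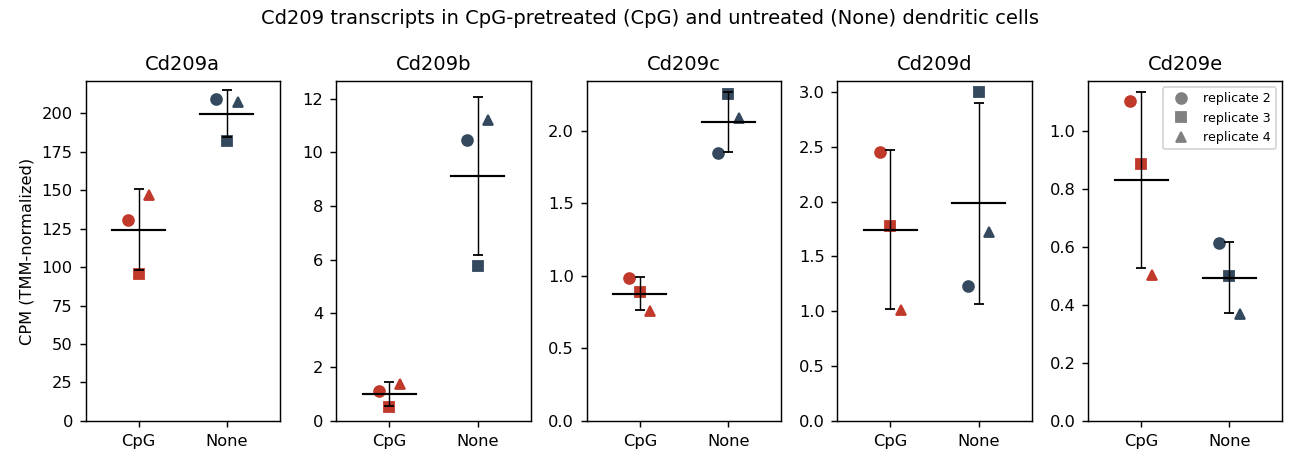
TMM-scaled CPM of each Cd209 gene in each library (points, marker shape by replicate number), with the group mean (bar) and SD (error bar), CpG-pretreated left and untreated (None) right. For Cd209a, Cd209b and Cd209c the 3 CpG-pretreated libraries sit below the 3 untreated ones, and for Cd209d and Cd209e the groups overlap. The axes differ in scale.

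Per length, the members did not stand in the same order in the groups. Levels in TPM (scaled by the deposited gene lengths) for Cd209a were 206 ± 43.7 in CpG-pretreated cells and 332 ± 21.5 in untreated cells. For Cd209b the TPM levels were 1.22 ± 0.550 in CpG-pretreated cells and 11.1 ± 3.50 in untreated cells. Cd209d had 4.94 ± 1.92 TPM in CpG-pretreated cells and 5.75 ± 2.83 TPM in untreated cells. Cd209c had 1.39 ± 0.146 TPM in CpG-pretreated cells and 3.30 ± 0.476 TPM in untreated cells, and Cd209e 1.15 ± 0.394 TPM in CpG-pretreated cells and 0.686 ± 0.143 TPM in untreated cells. In CpG-pretreated cells the order was Cd209a, Cd209d, Cd209c, Cd209b, Cd209e, where the libraries of Cd209c and Cd209b, and of Cd209b and Cd209e, overlapped. In untreated cells it was Cd209a, Cd209b, Cd209d, Cd209c, Cd209e, where Cd209b and Cd209d, and Cd209d and Cd209c, overlapped.

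Cd209a also ranked high among other lectin receptors. Of 30 lectin genes compared per length, it stood 4th in CpG-pretreated and 3rd in untreated cells, close to the inhibitory receptor gene Clec4a4 in untreated cells. Clec4a4 had 293 ± 62.7 TPM in CpG-pretreated cells and 333 ± 7.72 TPM in untreated cells. Clec4a1, the first in both groups, had 312 ± 31.6 TPM in CpG-pretreated cells and 339 ± 22.7 TPM in untreated cells. Among all genes Cd209a stood at rank 862 in CpG-pretreated and rank 413 in untreated cells. Cd209b stood at rank 23 of the 30 lectins in CpG-pretreated cells and at rank 14 in untreated cells.

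Cd209b was a smaller part of the family in every CpG-pretreated library. It made up 0.809% of all Cd209 counts in CpG-pretreated sample 2, 0.510% in sample 3 and 0.921% in sample 4, with exact binomial (Clopper-Pearson) 95% intervals of 0.370 to 1.53%, 0.139 to 1.30% and 0.460 to 1.64%. In untreated samples 2, 3 and 4 it made up 4.67%, 2.97% and 5.02%, with intervals of 3.75 to 5.74%, 2.18 to 3.94% and 4.06 to 6.13%. None of the CpG-pretreated intervals reached an untreated one. This is a description, since Cd209b was selected on these same counts. PCR copies cannot be told from separate molecules here, so such intervals cover counting error only.

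Counted per 1000 Cd209a counts, Cd209b stood at 8.43, 5.32 and 9.43 in CpG-pretreated samples 2, 3 and 4, and at 49.8, 31.6 and 53.9 in untreated samples 2, 3 and 4. Within a library, Cd209b was thus lower relative to Cd209a, which was itself lower. Cd209c stood at 7.50, 9.31 and 5.15 per 1000 Cd209a counts in CpG-pretreated samples and at 8.79, 12.4 and 10.1 in untreated ones, and these ranges overlap. Cd209e stood at 8.43, 9.31 and 3.43 per 1000 Cd209a counts in CpG-pretreated samples and at 2.93, 2.75 and 1.78 in untreated ones, which do not overlap but rest on at most 9 counts a library. For Cd209d the ratios were 6.86 to 18.7 in CpG-pretreated and 5.86 to 16.5 in untreated samples.

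**Figure D2:**
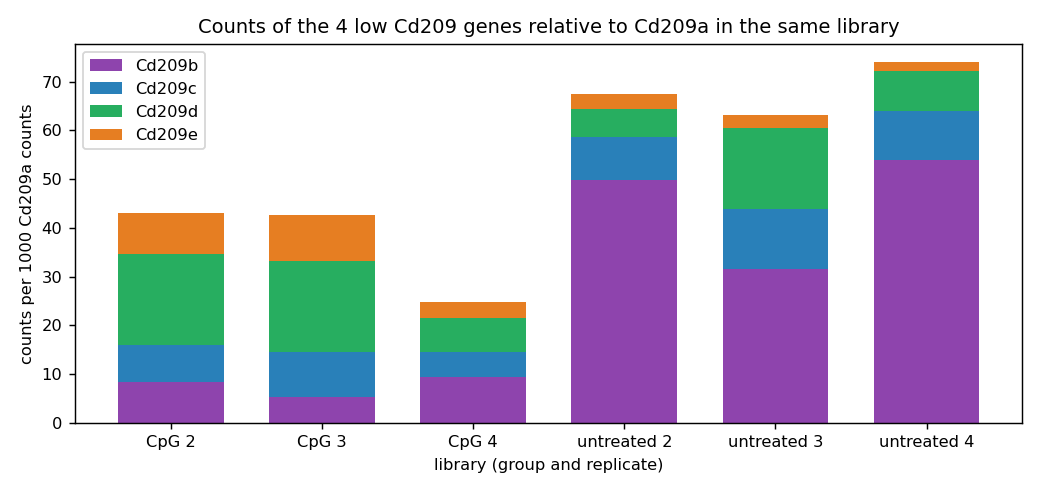
Counts of Cd209b, Cd209c, Cd209d and Cd209e per 1000 Cd209a counts in each library, stacked, with the CpG-pretreated libraries on the left. The Cd209b part is 5.32 to 9.43 in CpG-pretreated libraries and 31.6 to 53.9 in untreated ones, and the Cd209c part is 5.15 to 9.31 in CpG-pretreated libraries and 8.79 to 12.4 in untreated ones.

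The summed family followed Cd209a, which held 95.9 to 97.6% of its counts in CpG-pretreated and 93.1 to 94.1% in untreated libraries. The sum was 1113, 784 and 1195 counts in CpG-pretreated samples 2, 3 and 4, against 1821, 1548 and 1813 in untreated samples 2, 3 and 4. Its log2 fold change was -0.73 (SE 0.16), a level 0.604 of the untreated one. Without Cd209a the sum was 46, 32 and 29 counts in CpG-pretreated samples and 115, 92 and 125 in untreated samples.

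Within same-numbered samples, the CpG-pretreated Cd209b level was 10.6% of the untreated level for number 2, 8.82% for number 3 and 12.4% for number 4. The corresponding values for Cd209a were 62.4%, 52.4% and 70.8%, and for Cd209c 53.2%, 39.4% and 36.2%. For Cd209d they were 199.6%, 59.2% and 58.5%, so that number 2 went the other way. For Cd209e they were 179.7%, 177.5% and 137%, above 100% for each number, on at most 9 counts a library. Among replicates Cd209b varied more than the median gene in both groups. Its coefficient of variation was 44.9% in CpG-pretreated and 32.3% in untreated libraries, where the median over all tested genes was 11.6% in CpG-pretreated and 12.3% in untreated libraries. For Cd209a it was 21.2% in CpG-pretreated and 7.69% in untreated libraries.

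The genes on either side of the cluster were compared with the members, since these share a chromosomal region. Of the 4 tested neighbours none was called by edgeR (adjusted p 0.398 to 0.974, lowest unadjusted p 0.0516) or with the block. Fcer2a, which encodes the low-affinity IgE receptor CD23, had a log2 fold change of -0.79 (SE 0.35), and the lectin gene Clec4g -0.54 (SE 0.37). For Trappc5, a subunit gene of a vesicle tethering complex, the log2 fold change was -0.27 (SE 0.12), and for Evi5l, beyond the other end, -0.04 (SE 0.20). Cd209d, with no separation of the groups, lies between Cd209a and Cd209b, which both did separate.

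**Figure D3:**
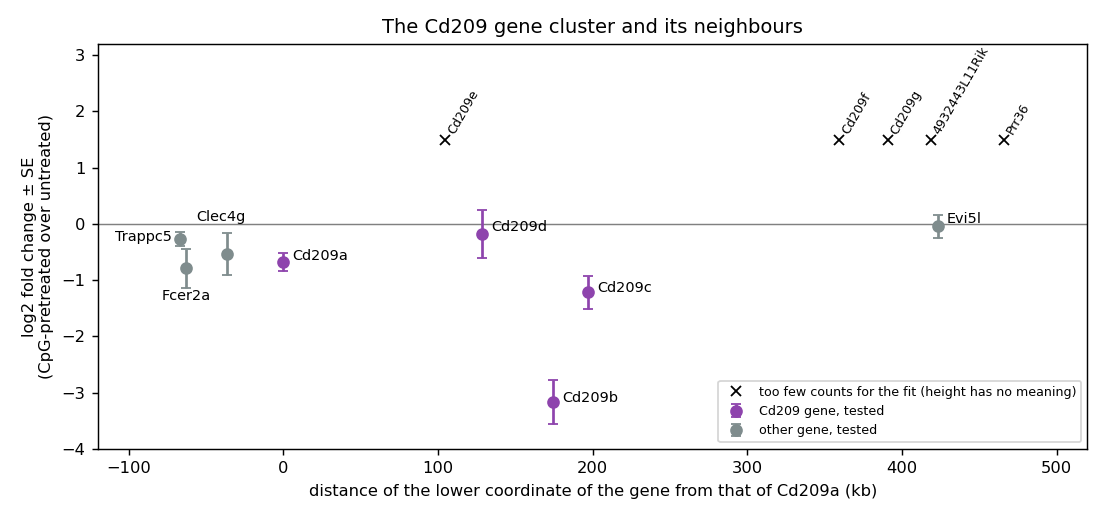
Log2 fold change of CpG-pretreated over untreated cells (points, with SE bars) for the Cd209 genes and the next measured genes, by distance in kb from Cd209a. Cd209b lies at -3.17 and its cluster neighbour Cd209d at -0.18, and crosses mark genes with too few counts for a value.

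The machinery through which human DC-SIGN signals was compared between the groups next. In human dendritic cells DC-SIGN engages a complex that includes LSP1, KSR1 and CNK, with RAS proteins, PAK and SRC family kinases, which modifies the NF-kB subunit RELA. Of 21 listed genes 20 were tested, and edgeR called none, against 0.974% of all genes. At an unadjusted p under 0.05 there were 1 higher and 1 lower, DESeq2 called 1 higher and limma-voom none. The median log2 fold change was 0.03, against -0.005 over all tested genes. Lsp1, the most abundant of the complex, averaged 2390 ± 134 CPM in CpG-pretreated cells and 2409 ± 162 CPM in untreated cells. The kinase gene Pak1 was at 405 ± 28.8 CPM in CpG-pretreated cells and 309.7 ± 14.3 CPM in untreated cells, with an edgeR adjusted p of 0.105 and of 0.0049 with the block.

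Of protein ligands on mouse cells, the 4 listed genes gave no call by edgeR, DESeq2 or limma-voom, and none had an unadjusted p under 0.05. Their median log2 fold change was 0.03. Icam2, the adhesion ligand, averaged 13.4 ± 2.65 CPM in CpG-pretreated cells and 13.1 ± 1.48 CPM in untreated cells. The integrin chains Itgam and Itgb2, which form Mac-1, had log2 fold changes of 0.28 (SE 0.14) and 0.03 (SE 0.098).

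Among 11 listed regulators of CD209 expression and of cDC2 or macrophage fate, 1 fell by edgeR, and 2 with the block. Ets1, which fell with the block only, stood at 9.95 ± 3.18 CPM in CpG-pretreated cells and 20.7 ± 1.38 CPM in untreated cells (log2 fold change -1.06, adjusted p 0.0697 without and 0.00142 with the block). Spi1, the gene of PU.1, averaged 632 ± 29.6 CPM in CpG-pretreated cells and 619 ± 42.2 CPM in untreated cells. Stat6, the factor through which IL-4 raises human CD209, averaged 325 ± 28.6 CPM in CpG-pretreated cells and 345 ± 28.5 CPM in untreated cells. The median log2 fold change of the 11 was -0.06.

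Of 25 other myeloid C-type lectin genes 20 were tested, and edgeR called none. At an unadjusted p under 0.05 there were 2 higher and 6 lower, where 1485 of all 11602 tested genes had such a p. DESeq2 called 2 lower, limma-voom none and the block fit 1 higher and 6 lower (549 higher and 439 lower over all genes). The median log2 fold change of the 20 tested lectin genes was -0.23, with 15 of 20 below 0, where 51.1% of all tested genes were. The 3 most abundant were Clec4a1 at -0.12 (SE 0.12), Clec4a4 at -0.18 (SE 0.15) and Clec2d at -0.23 (SE 0.17). The 6 lower with the block were Mrc1, Mrc2, Clec4n, Clec7a, Mgl2 and Clec1b, and the 1 higher was Ly75, the gene of DEC-205. Mrc2, an endocytic collagen receptor gene, averaged 11.3 ± 2.93 CPM in CpG-pretreated cells and 24.4 ± 3.88 CPM in untreated cells (log2 fold change -1.12, edgeR adjusted p 0.0541). For Clec7a, the beta-glucan receptor Dectin-1, the means were 86.6 ± 11.0 CPM in CpG-pretreated cells and 119 ± 12.4 CPM in untreated cells (log2 fold change -0.46, edgeR adjusted p 0.146).

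Markers of the labelled cells and of other cells that the sort could hold were compared between the groups. Markers of the labelled cell type were abundant, and Itgax, the gene of CD11c, averaged 1970 ± 140 CPM in CpG-pretreated cells and 2200 ± 108 CPM in untreated cells. The 6 genes of the conventional dendritic cell list summed to 36264 to 42861 CPM in CpG-pretreated libraries and 39486 to 47570 CPM in untreated ones, with no call by edgeR, with or without the block, DESeq2 or limma-voom and 0 genes at an unadjusted p under 0.05. For the marginal zone macrophage list (Marco, Siglec1, Msr1, Nr1h3 and Timd4, without Cd209b), the sum was 16.4 to 23.3 CPM in CpG-pretreated libraries and 26.5 to 37.5 CPM in untreated ones. EdgeR called none of these 5, limma-voom none, DESeq2 1 lower and the block fit 1 lower, and 2 were lower at an unadjusted p under 0.05.

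Of the 5 listed genes none was at 0 in any library. Marco stood at 1.72, 2.16 and 0.882 CPM in CpG-pretreated samples 2, 3 and 4, and at 1.23, 4.25 and 0.983 CPM in untreated samples 2, 3 and 4. Siglec1, a sialic acid receptor gene, stood at 1.35, 1.27 and 1.01 CPM in CpG-pretreated samples and at 0.860, 3.25 and 3.69 CPM in untreated ones. The groups overlapped for both genes, with log2 fold changes of -0.43 (SE 0.59) for Marco and -1.09 (SE 0.50) for Siglec1. Nr1h3, the gene of the nuclear receptor LXR alpha, averaged 9.29 ± 2.64 CPM in CpG-pretreated cells and 14.4 ± 2.59 CPM in untreated cells (log2 fold change -0.63, SE 0.23). Timd4, a phosphatidylserine receptor gene, stood at 6.13, 5.20 and 3.02 CPM in CpG-pretreated samples and at 2.95, 4.00 and 3.69 CPM in untreated ones (log2 fold change 0.43, SE 0.29). Msr1, a scavenger receptor gene, was at 2.09, 2.54 and 2.77 CPM in CpG-pretreated samples and at 8.23, 4.38 and 11.8 CPM in untreated ones (log2 fold change -1.72, edgeR adjusted p 0.0764, 0.0015 with the block). Per 1000 counts of the 5 listed genes, Cd209b had 60.4, 21.7 and 84.6 counts in CpG-pretreated samples 2, 3 and 4, against 394, 203 and 298 in untreated samples 2, 3 and 4. This ratio uses the Cd209b counts on which the members were selected, and the part of marginal zone macrophages in the Cd209 values was not tested.

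All 12 genes of the red pulp macrophage list had log2 fold changes below 0, with a median of -1.24, and 4 of them fell by edgeR (10 with the block). These were Vcam1, C1qa, C1qc and Hpgd. C1qa, a chain of complement C1q, averaged 7.89 ± 0.586 CPM in CpG-pretreated cells and 21.2 ± 3.16 CPM in untreated cells (log2 fold change -1.43, SE 0.16, edgeR adjusted p = 0.0236). The list summed to 361 to 496 CPM in CpG-pretreated libraries and 558 to 719 CPM in untreated ones. The part of red pulp macrophages in the Cd209 values was not tested.

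Beside Cd209a, the CD8- dendritic cell list gave 1 lower call among 7 genes, and 3 with the block (Esam, Cd4 and Dtx1). Esam, an adhesion molecule gene of the Notch-dependent subset, averaged 50.8 ± 3.39 CPM in CpG-pretreated cells and 85.5 ± 13.3 CPM in untreated cells (log2 fold change -0.75, SE 0.13, edgeR adjusted p = 0.0444). The list summed to 2490 to 3252 CPM in CpG-pretreated libraries and 2927 to 3306 CPM in untreated ones, with a median log2 fold change of -0.35. For the lists of Clec12a-positive cDC2 and of monocytes, the medians were -0.05 and 0.21. The Clec12a-positive list gave no call by edgeR, DESeq2 or limma-voom, 1 lower with the block and 1 higher and 1 lower at an unadjusted p under 0.05. Of the monocyte list 1 of 9 genes fell by edgeR. The 8 genes of the cDC1 list gave no edgeR or limma-voom call, 2 higher by DESeq2, 3 higher with the block and 3 higher at an unadjusted p under 0.05. The erythroid list stood higher in CpG-pretreated libraries, at 206 to 980 CPM, against 21.3 to 87.1 CPM in untreated ones, with 3 of 5 tested genes higher by edgeR (Hba-a2, Hbb-bs and Alas2). With the block 2 of the 5 were higher, Hbb-bs and Alas2 losing their calls (adjusted p 0.0668 and 0.135), and limma-voom called none. Of the endothelial list 1 of 4 tested genes rose by edgeR (Kdr), with none by the block fit. The lists of plasmacytoid dendritic cells, B cells, T cells and neutrophils gave no call by edgeR, DESeq2 or limma-voom, with 1, 1, 0 and 1 genes at an unadjusted p under 0.05, and the block fit called 1 neutrophil gene. No NK cell gene was tested. The part of these cells in the Cd209 values was not tested.

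**Figure D4:**
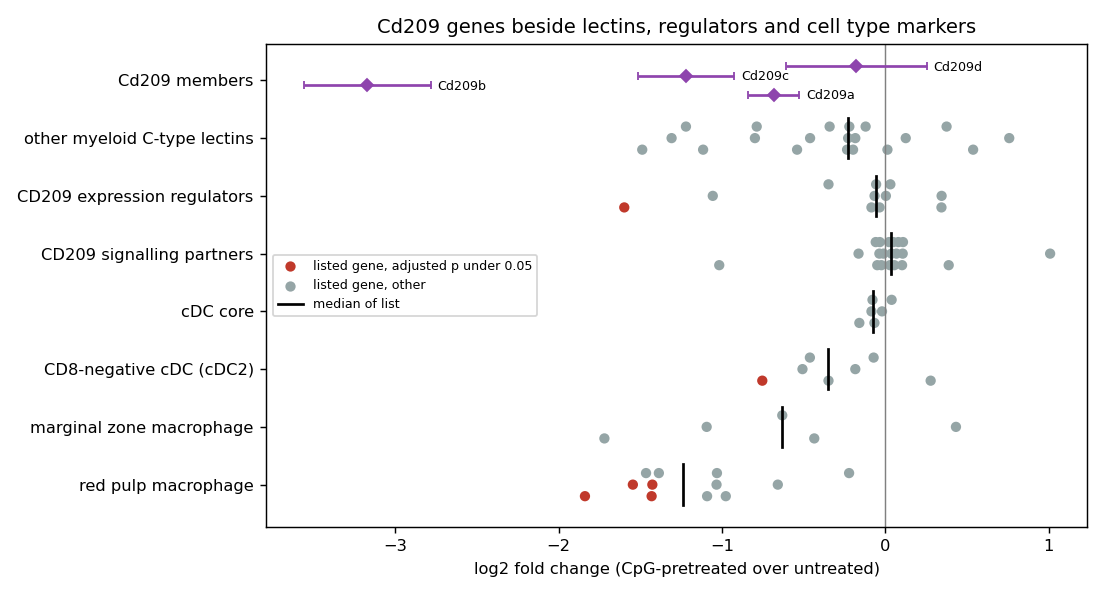
Log2 fold change of CpG-pretreated over untreated cells for the tested Cd209 genes (diamonds with SE) and for each tested gene of 7 lists (dots), where red marks an adjusted p under 0.05 by edgeR and a black line the median of the list. The signalling and conventional dendritic cell lists centre near 0, at 0.03 and -0.07, and the red pulp macrophage list at -1.24.

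Genes whose levels ran most like a member's over the 6 libraries were listed as a description, out of 8949 or 8950 genes with a mean log2 CPM of at least 3. All points share the same 6 libraries and with them the group, so no p is given. For Cd209a these were Scamp4, Il18, Armcx2, Stx6 and Polrmt, with Pearson r of 0.998 down to 0.982. For Cd209b they were Zfp870, Tk2, Cd81, Camkmt and Osgin1, with r of 0.993 down to 0.987. Cd81, a tetraspanin gene, averaged 23.6 ± 7.31 CPM in CpG-pretreated cells and 69.8 ± 11.1 CPM in untreated cells, and Il18, a cytokine gene, 11.9 ± 2.68 CPM in CpG-pretreated cells and 22.1 ± 2.98 CPM in untreated cells. Cd209c ran with Galnt6, Tmem62, Impdh1, Stk32c and Tuft1 (r of 0.987 down to 0.972), and Cd209d with Tkfc, Gin1, Nsdhl, Mfsd4a and Trappc13 (r of 0.993 down to 0.920). The choice of genes changed with the measure: by Spearman's rho 1 of the 5 stayed for Cd209a, 3 for Cd209b, 0 for Cd209c and 4 for Cd209d.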

How the data were processed

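The authors deposited raw read counts for each Entrez gene ID. The tools, per the submitters' processing notes, were CASAVA and featureCounts with mm10, versions not given. The aligner, strand setting, read length and multi-mapping rule are not given by the sources used here, so reads of a gene and an antisense partner cannot be told apart. Symbols, positions and promoters came from RefSeq on GRCm38.p6, and transcripts from the GENCODE reference. Of the gene IDs 25275 matched, and the 1904 others held 0.327% of counts. The 6 sample files equalled the table of the series. Within groups chi-square per degree of freedom was 3.30 to 20.8, so no library was a repeat of another.

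Counts were fitted in R 4.3.3 with edgeR 4.0.16 (filterByExpr with a minimum count of 10 and a minimum total of 15, TMM, robust quasi-likelihood F test, two-sided, Benjamini-Hochberg over all 11602 genes). Each SE was computed from the log2 fold change and the F value. TPM used the deposited lengths. Alternatives were other scalings and filters, DESeq2 1.42.0, limma-voom (limma 3.58.1), a replicate block and leaving out each library. The fit was tested on simulated data. The members and the 18 gene lists were chosen with earlier results of these data known. Named are all Cd209 genes, called list genes, the 3 most abundant genes of a list, the 5 genes most like each member and the cluster's neighbours, and further list genes were picked after their values were seen. Some items are not reported here.

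Both groups carry replicate numbers 2, 3 and 4. Deviations from the group means correlated at 0.48, 0.25 and 0.31 between same-numbered libraries and at -0.39 to 0.07 between others. The numbers were therefore taken to pair the samples, from the data alone, and the unblocked fit was kept as the principal one.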

Additional observations from a re-analysis of the deposited data

How the results depend on the processing

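Over 15 alternatives the log2 fold change stayed negative for Cd209a (-0.82 to -0.52), Cd209b (-3.47 to -2.85), Cd209c (-1.31 to -1.04) and the family sum (-0.85 to -0.57), and for Cd209d it ran from -0.50 to 0.24. With a prior count of 2, Cd209c moved to -1.04. Cd209e had a fitted value only with no filter on low counts (0.74). Cd209b lost its call without CpG-pretreated replicate 2 or 3 or untreated replicate 3 or 4, and kept it in the other alternatives. Nothing is read from these calls, since the same contrast chose the members.

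The number of genes called, 113, became 189 with no filter, 428 by DESeq2, 41 by limma-voom and 988 with the replicate block, and 0 to 386 when 1 library was left out (0 without CpG-pretreated replicate 2 or 3, 2 and 1 without untreated replicate 3 or 4, 34 without untreated replicate 2, 386 without CpG-pretreated replicate 4). Calls among the genes of the 18 lists, 10 in all, became 26 by DESeq2, 2 by limma-voom and 32 with the replicate block, and 0 to 22 with 1 library left out. The cause was not tested, beyond the fewer samples of each such fit. Cd209c, Cd209d and Cd209e had at most 24 counts in a library, and depth limits what can be said of them.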
